A study of Mus musculus with 9 samples.

Results

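The genes described here build and maintain the muscle side of the neuromuscular junction. They are 5 subunit genes of the muscle acetylcholine receptor (Chrna1, Chrnb1, Chrnd, Chrne and Chrng), 4 genes of the agrin receptor pathway that gathers the receptor under the nerve (Lrp4, Musk, Dok7 and Rapsn) and the acetylcholinesterase gene Ache. They were chosen by name, as every probe whose gene name in the scanner files is 1 of these 10. That gave 13 of 39429 probes, and all 13 passed the filter on dim probes. The 10 genes stand among 21992 tested. Chrna1, Dok7 and Ache each had a pair of probes, and the probe with the higher mean represented the gene.

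The samples were cultures of C2C12, a line of mouse myoblasts able to fuse into multinucleated myotubes, and the series title speaks of myotubes. The 3 groups were vehicle, 1 nM calcitriol and 10 nM calcitriol, each for 72 h, with 3 arrays per group. Calcitriol, the active vitamin D hormone, acts through the nuclear receptor VDR. All groups share this single cell line, no label names nerve cells or agrin, and the sources used here do not give the stage at which treatment began. The 3 samples of a condition are described as biological replicates, without saying whether they were separate cultures, so p-values measure the spread between these samples.

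At the neuromuscular junction the motor nerve releases acetylcholine, which opens a receptor channel assembled from 5 subunits in the muscle membrane. Fetal muscle and cultured myotubes use the gamma subunit, and adult muscle replaces it with epsilon, while the alpha, beta and delta subunits are common to both forms. Nerve-derived agrin binds Lrp4, Lrp4 activates the kinase MuSK, Dok7 is the adaptor that keeps MuSK active, and rapsyn anchors the receptors in dense clusters. Acetylcholinesterase, held in the synaptic cleft by the collagen tail ColQ, ends the signal. Transcription of the subunit genes is known to depend on myogenic factors, which bind E-boxes, and in nuclei under the nerve also on Ets-family factors, which bind the N-box.

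The probe of the fetal gamma subunit is shown because the results set that subunit against the adult one. It is 60 bases long and is printed 5′ to 3′ in lower case as deposited, with nothing marked in capitals.
Chrng probe: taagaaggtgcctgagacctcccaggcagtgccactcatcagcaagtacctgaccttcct
In the mm9 build of the scanner files it lies within chr1:89106072-89106353 on the plus strand, a span longer than the probe. The probes of Chrnd (chr1:89096585-89096644), Rapsn (chr2:90885826-90885885) and Musk (chr4:58387070-58387129) all read the plus strand. The sources used here do not say which exon each probe reads.

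The 250 bases before the start site were read from RefSeq promoter sequences of build GRCm38.p6, which matched 7 of the 10 genes (Chrna1, Chrnb1, Chrne, Chrng, Musk, Ache and Dok7) with 8 windows, Dok7 having a pair of them. The 4 windows that hold the E-box CAGCTG are shown because they belong to the receptor subunits and the kinase described next. Capitals mark CAGCTG, which reads the same on both strands, and the N-box CCGGAA, searched on both strands. No marked letters overlap.
Chrna1: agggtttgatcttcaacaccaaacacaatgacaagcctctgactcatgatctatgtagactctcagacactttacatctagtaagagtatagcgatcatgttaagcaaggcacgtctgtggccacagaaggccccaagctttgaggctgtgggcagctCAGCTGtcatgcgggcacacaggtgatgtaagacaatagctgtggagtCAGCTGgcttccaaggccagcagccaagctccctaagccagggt
Chrne: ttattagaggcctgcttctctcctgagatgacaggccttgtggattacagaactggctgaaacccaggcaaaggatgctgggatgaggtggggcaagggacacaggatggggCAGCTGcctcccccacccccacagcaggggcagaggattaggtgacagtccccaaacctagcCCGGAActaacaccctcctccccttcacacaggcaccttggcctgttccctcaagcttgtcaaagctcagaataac
Chrng: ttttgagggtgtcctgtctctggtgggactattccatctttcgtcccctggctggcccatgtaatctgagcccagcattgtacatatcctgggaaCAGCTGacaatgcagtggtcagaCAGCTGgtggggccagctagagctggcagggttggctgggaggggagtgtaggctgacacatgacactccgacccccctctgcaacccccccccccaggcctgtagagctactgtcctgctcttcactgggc
Musk: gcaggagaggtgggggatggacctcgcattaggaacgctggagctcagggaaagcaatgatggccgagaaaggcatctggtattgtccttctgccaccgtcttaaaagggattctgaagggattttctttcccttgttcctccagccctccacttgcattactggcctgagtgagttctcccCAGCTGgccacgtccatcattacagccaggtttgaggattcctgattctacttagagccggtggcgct
These windows lie at chr2:73580339-73580588 on the minus strand (Chrna1), chr11:70619195-70619444 on the minus strand (Chrne), chr1:87205561-87205810 on the plus strand (Chrng) and chr4:58285712-58285961 on the plus strand (Musk). Chrna1 holds the E-box at positions -92 and -44 from its start, Chrng at -155 and -132, Chrne at -138 and Musk at -68. Of 32851 windows of this length, 13% hold this E-box, against 4 of the 8 windows of these genes. The N-box was found in 12% of all windows and in 1 of the 8, that of Chrne at -76. A DR3 vitamin D response element was in 13 of the 32851 windows and in 0 of the 8. A match is a run of letters and not a shown binding site.

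Levels are log2 of the processed signal minus the 75th percentile of the array. A difference of 1 therefore stands for a factor of 2, and the level of 1 probe cannot be set against that of another. The share of spots well above background was 65.7% to 77.7% on 8 arrays, which had 8 to 56 spots marked as non-uniform. The array of vehicle replicate 3 stood apart, with 94.8% and 6124 spots, and it lacked a value for 1708 tested genes, so results are also given without it. Slide 1 held vehicle replicates 1 and 2 and replicate 1 of each dose. Slide 2 held vehicle replicate 3, 1 nM replicates 2 and 3 and 10 nM replicate 2, and slide 3 held 10 nM replicate 3 alone. All 13 probes were well above background on all 9 arrays, apart from the Ache probe used, which had no value on vehicle replicate 3.

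At 1 nM against vehicle, Chrnd, Rapsn and Musk rose and 0 of the 10 genes fell, at an adjusted p under 0.05 in limma. Over all genes tested 23.6% passed, 11.8% higher and 11.8% lower. The median difference of the 10 genes was 0.29 on the log2 scale, against -0.09 over all genes. Differences above 0 were found for 9 of the 10 and for 8988 of all 21992 genes. The 9 include Ache, whose other probe gave -0.30. The groups did not overlap in 7 of the 10, against 42.4% of all genes. Of the 7, 6 were higher (19.8% of all genes) and 1 was lower (22.7%). Dok7 was among the higher by a narrow gap, its closest arrays being 3.102 at 1 nM and 3.099 in vehicle. In bulk RNA a change in the share of cells of a type and a change in RNA per cell cannot be told apart.

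At 10 nM against vehicle, Rapsn and Chrnd rose and Chrne fell. Over all genes 30.1% passed, 15.4% higher and 14.7% lower, so 3 of 10 is the share found among all genes. The median of the 10 was 0.10, against -0.11 over all genes. The groups did not overlap in 5 of the 10, against 43.8% of all genes, with 3 higher (21.8%) and 2 lower (21.9%). Dok7 was among the lower by a narrow gap, its closest arrays being 2.93 at 10 nM and 2.934 in vehicle. Both doses were compared with the same vehicle arrays.

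Without vehicle replicate 3 the counts at 1 nM and 10 nM were 2 and 3 of 10, against 25.3% and 32.5% of all genes. At 1 nM the count was 1 without vehicle replicate 1 (19.6% of all genes), 1 nM replicate 2 (16%) or 1 nM replicate 3 (15.9%). The remaining gene was Chrnd each time.

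**Figure D1:**
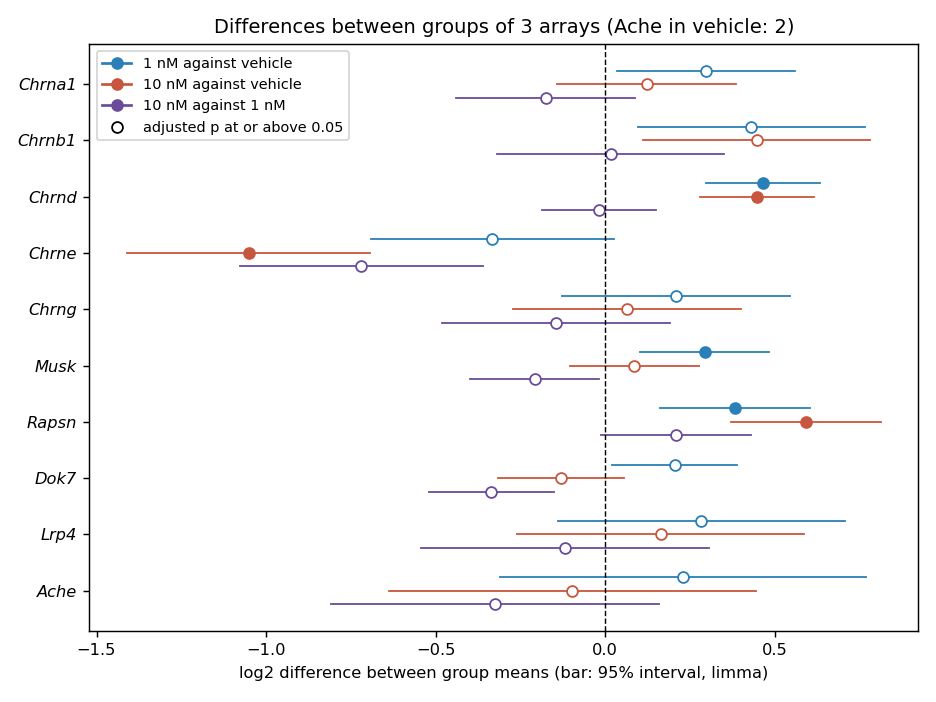
Log2 difference between group means for each of the 10 genes (points, filled where adjusted p was under 0.05), with 95% intervals from limma (bars), for both doses against vehicle and for 10 nM against 1 nM. Chrnd and Rapsn lie right of 0 at both doses with filled points, and Chrne lies at -1.05 at 10 nM.

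Among the subunits common to both receptor forms, Chrnd was the one that rose. Its levels were 4.13, 4.26 and 4.18 in vehicle, 4.54, 4.73 and 4.69 at 1 nM, and 4.63, 4.64 and 4.64 at 10 nM. Every treated array was above every vehicle array, and the dose groups overlapped. The difference was 0.46 (SE 0.07, adjusted p = 0.00276) at 1 nM and 0.45 (SE 0.07, adjusted p = 0.0025) at 10 nM, or 1.38-fold and 1.36-fold. Within slides 1 and 2 it was 0.34 and 0.54 at 1 nM and 0.43 and 0.46 at 10 nM. The calls were lost within slide 1, where each dose has 1 array (adjusted p = 0.406 and 0.215), and with array median scaling (differences of 0.95 and 0.97, adjusted p = 0.117 and 0.0759).

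Chrnb1, the beta subunit, gave differences of nearly the same size with a wider spread. Its levels were 0.57, 0.93 and 0.64 in vehicle, 1.12, 1.01 and 1.31 at 1 nM, and 1.18, 0.95 and 1.36 at 10 nM. Again no treated array reached down to the vehicle arrays, though vehicle replicate 2 and 10 nM replicate 2 lay close together. The difference of 0.43 at 1 nM (95% interval 0.10 to 0.77, adjusted p = 0.0703) and of 0.45 at 10 nM (0.11 to 0.78, adjusted p = 0.0517) did not pass the test. Both passed without vehicle replicate 2 (0.54, adjusted p = 0.0394, and 0.55, adjusted p = 0.0292), and the 10 nM value passed without 10 nM replicate 2 (0.55, adjusted p = 0.038). The 1 nM value did not pass when any other vehicle array, or any 1 nM array, was left out (adjusted p = 0.095 to 0.223).

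Chrna1, the alpha subunit that carries most of the acetylcholine binding site, did not pass at either dose. The levels of its brighter probe were 6.03, 6.09 and 5.96 in vehicle, 6.11, 6.42 and 6.44 at 1 nM, and 6.06, 6.31 and 6.09 at 10 nM. At 1 nM all arrays lay above vehicle, by 0.30 on average (adjusted p = 0.106), and at 10 nM the groups overlapped (0.12, adjusted p = 0.438). Without 1 nM replicate 1 the 1 nM difference was 0.40 and passed (adjusted p = 0.0355). Without 1 nM replicate 2 or 3 it was 0.25 and 0.24 and did not pass (adjusted p = 0.295 and 0.301). The dimmer probe gave 0.05 and -0.03 (adjusted p = 0.742 and 0.817).

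Chrne, the epsilon subunit of the adult receptor, showed the largest difference of the 10 genes, and it was lower. Its levels were -4.01, -3.59 and -4.03 in vehicle, -4.26, -4.14 and -4.24 at 1 nM, and -4.87, -4.74 and -5.18 at 10 nM. The 3 groups did not overlap, with vehicle highest and 10 nM lowest. At 10 nM Chrne fell by 1.05 on the log2 scale (SE 0.15, 95% interval -1.41 to -0.69, adjusted p = 0.00152), which is 2.07-fold. At 1 nM the difference of -0.33 (-0.69 to 0.03, adjusted p = 0.174) did not pass.

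The Chrne probe is dim. Its processed signal was 194.7 to 259.4 intensity units in vehicle, 158 to 177.1 at 1 nM and 79.87 to 106.3 at 10 nM. The lowest signal well above background on an array was 21.1 to 47.4. Within slides 1 and 2 the 10 nM difference was -1.06, which did not pass, and -0.71. Each of these slides has 1 array at 10 nM. On slide 2 the vehicle array is replicate 3 alone, so only the size of these differences is given. Over all slides, without vehicle replicate 3, the difference was -1.13 (adjusted p = 0.00225).

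The call of Chrne at 10 nM was lost under 3 other scalings of the full set of arrays. With normexp background correction and quantile normalization the difference was -0.07 (adjusted p = 0.906), in the submitters' table -0.05 (adjusted p = 0.944) and with array median scaling -0.52 (adjusted p = 0.316). At 1 nM the same 3 settings gave 0.27, 0.28 and 0.16, the other direction. When that array was left out, quantile normalization gave -0.62 (adjusted p = 0.00253) and median scaling -0.99 (adjusted p = 0.00336) at 10 nM, and -0.27 and -0.31 at 1 nM. Median scaling moved the median of all genes to 0.38 at 1 nM and 0.40 at 10 nM. Relative to the median of all genes, Chrne at 10 nM was -0.94 in the main setting and -0.92 under median scaling. These settings differ only by a factor per array, so this closeness was fixed in advance and cannot support the fall. The same value was -0.16 with quantile normalization, -0.11 in the submitters' table and -0.53 with normexp at the 75th percentile.

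Chrng, the gamma subunit of the fetal receptor, did not pass at either dose. Its levels were 0.32, 0.70 and 0.30 in vehicle, 0.71, 0.50 and 0.73 at 1 nM, and 0.60, 0.29 and 0.62 at 10 nM. The groups overlapped throughout. The differences were 0.21 (95% interval -0.13 to 0.55, adjusted p = 0.343) and 0.07 (-0.27 to 0.40, adjusted p = 0.753).

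The difference between the Chrne and Chrng levels within an array asks whether the adult and fetal subunits moved apart. It ran from -4.33 to -4.29 in vehicle, from -4.97 to -4.65 at 1 nM and from -5.80 to -5.04 at 10 nM. The groups did not overlap. From vehicle it changed by -0.54 at 1 nM and by -1.12 at 10 nM, and the doses differed by -0.57, each with p = 0.1 in a two-sided exact permutation test, the smallest p that 3 against 3 arrays allow. With arrays of the same replicate number at the 2 doses as pairs, Chrne minus Chrng was lower at 10 nM in 3 of 3 pairs, with p = 0.25 in a two-sided exact test over the signs of the pair differences, the smallest p that 3 pairs allow.

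These changes were smaller in size under other background corrections of all 9 arrays, and close to 0 under 2 of them. With normexp and quantile normalization the difference of Chrne and Chrng changed by 0.03 at 1 nM and -0.09 at 10 nM, and the doses differed by -0.12 (exact permutation p = 1, 1 and 0.5). In the submitters' table the values were 0.04, -0.07 and -0.11, and with normexp at the 75th percentile they were -0.48, -0.64 and -0.17. Quantile normalization without vehicle replicate 3 gave -0.43, -0.57 and -0.14.

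**Figure D2:**
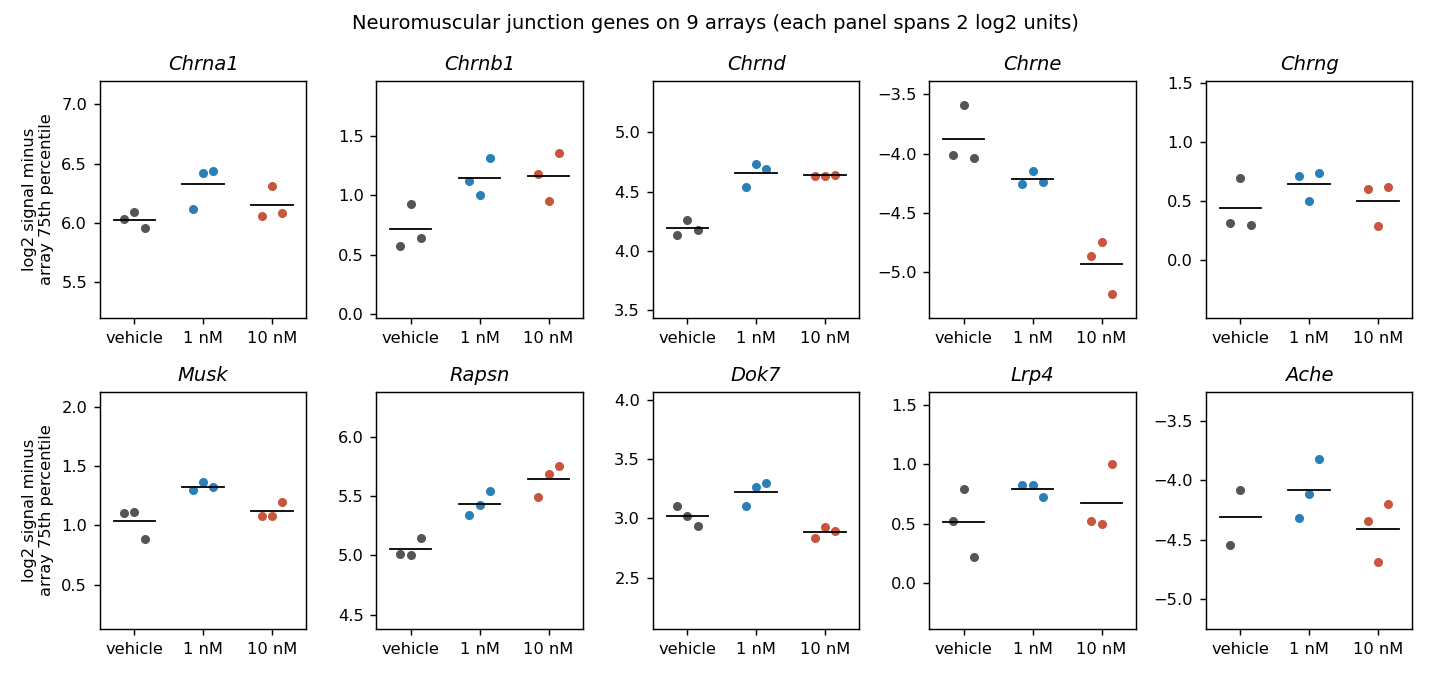
Level of the 10 genes on each array (points) by group, as log2 signal minus the array's 75th percentile, with group means as lines and every panel spanning 2 log2 units. The Chrnd and Rapsn points of both doses lie above all vehicle points, and the Chrne points at 10 nM, from -5.18 to -4.74, lie below all others.

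Of the agrin receptor pathway, Rapsn, whose product rapsyn ties receptors to the cytoskeleton, rose at both doses. Its levels were 5.01, 5.01 and 5.14 in vehicle, 5.34, 5.42 and 5.55 at 1 nM, and 5.49, 5.69 and 5.75 at 10 nM. All treated arrays were above vehicle and the doses overlapped. The difference was 0.38 (SE 0.09, adjusted p = 0.023) at 1 nM, or 1.30-fold, and 0.59 (SE 0.09, adjusted p = 0.0024) at 10 nM, or 1.51-fold. Within slides 1 and 2 it was 0.33 and 0.34 at 1 nM, and 0.49 and 0.54 at 10 nM.

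The 1 nM call of Rapsn was lost under 10 of 27 alternatives and the 10 nM call under 1, within slide 1 (adjusted p = 0.159). Single arrays decided the 1 nM call. It was lost without vehicle replicate 1 (adjusted p = 0.0709), vehicle replicate 2 (0.0584), 1 nM replicate 2 (0.0713) or 1 nM replicate 3 (0.0904), with differences of 0.33 to 0.39.

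Musk, which encodes the receptor kinase at the centre of the pathway, rose at 1 nM and not at 10 nM. Its levels were 1.11, 1.11 and 0.89 in vehicle, 1.30, 1.37 and 1.32 at 1 nM, and 1.077, 1.083 and 1.201 at 10 nM. The 1 nM arrays stood above all others, and the 10 nM arrays overlapped vehicle. The difference at 1 nM was 0.29 (SE 0.08, adjusted p = 0.0367) and that at 10 nM 0.09 (95% interval -0.10 to 0.28, adjusted p = 0.45).

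The 1 nM call of Musk was lost under 19 of 27 alternatives. They include leaving out vehicle replicate 1 (adjusted p = 0.0524) or 3 (0.0594), 1 nM replicate 1 (0.0742), 2 (0.127) or 3 (0.106), and 10 nM replicate 1 (0.0559) or 2 (0.0615), with differences of 0.22 to 0.33. Within slides 1 and 2 the difference was 0.19 and 0.46. Slide 1 has 1 array at 1 nM, and vehicle replicate 3 is the only vehicle array of slide 2.

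Lrp4, the agrin receptor, did not pass at either dose. Its levels were 0.52, 0.79 and 0.22 in vehicle, 0.82, 0.83 and 0.73 at 1 nM, and 0.52, 0.49 and 1.01 at 10 nM. The groups overlapped, and vehicle and 10 nM each had an SD of 0.29. The differences were 0.28 (95% interval -0.14 to 0.71, adjusted p = 0.313) and 0.16 (-0.26 to 0.59, adjusted p = 0.515).

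Dok7, the adaptor that activates MuSK from inside the cell, lay on opposite sides of vehicle at the doses, and neither difference passed. Its levels were 3.10, 3.02 and 2.93 in vehicle, 3.10, 3.26 and 3.30 at 1 nM, and 2.83, 2.93 and 2.90 at 10 nM. The differences were 0.20 (adjusted p = 0.113) and -0.13 (adjusted p = 0.249). The latter was 0.40 with array median scaling. The dimmer probe of Dok7 gave 0.24 and -0.04 (adjusted p = 0.217 and 0.808), the same directions.

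Ache, the esterase gene, was near the lower end of the measurable range. The brighter probe gave -4.55 and -4.08 on the vehicle arrays 1 and 2, then -4.32, -4.11 and -3.82 at 1 nM and -4.34, -4.69 and -4.20 at 10 nM. It was fitted on 8 arrays. The groups overlapped, and the differences of 0.23 (adjusted p = 0.505) and -0.10 (adjusted p = 0.766) had SEs of 0.22.

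The other Ache probe, with values on all 9 arrays, gave -4.36, -4.31 and -4.05 in vehicle, -4.60, -4.61 and -4.41 at 1 nM, and -4.33, -4.62 and -4.88 at 10 nM. Its 1 nM arrays lay below all vehicle arrays, but the differences of -0.30 (adjusted p = 0.217) and -0.37 (adjusted p = 0.113) did not pass. The probes of Ache thus disagreed in direction at 1 nM, and no direction is given for the gene.

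**Figure D3:**
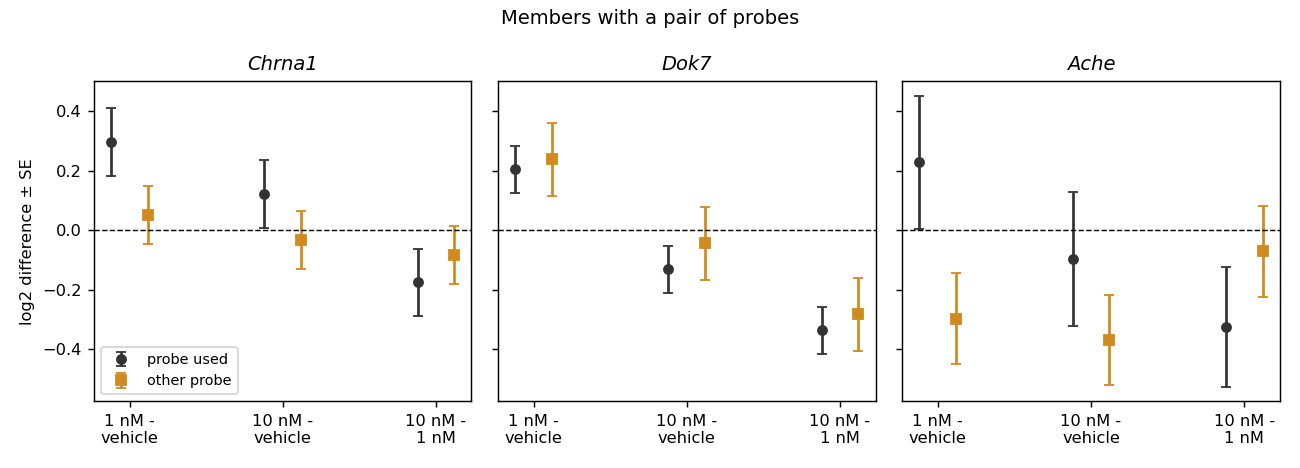
Log2 difference with its SE from limma for the probe used and the other probe of Chrna1, Dok7 and Ache, in the 3 comparisons. The Dok7 probes lie close together at 1 nM, at 0.20 and 0.24, while the Ache probes lie on opposite sides of 0 at 1 nM.

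Between the doses, 0 of the 10 genes passed in limma, against 3.81% of all genes, 1.60% higher and 2.21% lower. An unadjusted p under 0.05 was found for 3 of the 10 and for 2684 of all 21992 genes. The groups did not overlap in 3 of the 10 (Chrne, Dok7 and Musk, all lower at 10 nM). Over all genes they did not overlap in 24.0%, with 11.4% lower. Chrne differed by -0.72 (SE 0.15, 95% interval -1.08 to -0.36), and its adjusted p, 0.05 after rounding, did not fall under the threshold. Dok7 differed by -0.34 (SE 0.08, adjusted p = 0.0725) and Musk by -0.21 (adjusted p = 0.342). Rapsn differed by 0.21 (95% interval -0.01 to 0.43) and Chrnd by -0.02 (-0.19 to 0.15).

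Deviations of arrays with the same replicate number at the 2 doses correlated at 0.484, 0.329 and 0.144. Those of 1 nM replicate 3 and 10 nM replicate 2, both on slide 2, correlated at 0.306, so number and slide cannot be told apart. With the replicate number as a block Chrne passed (-0.72, adjusted p = 0.0448). It also passed without vehicle replicate 2 (adjusted p = 0.0246) or 3 (0.0409), which enter through the shared estimate of the spread. In all it passed under 6 of 27 alternatives and missed under 21. It missed with the slide as a block (-0.60, adjusted p = 0.201), with trend and robust (0.16), without vehicle replicate 1 (0.0754) and without each dose array in turn (0.0772 to 0.195). Within slide 1, with 1 array per dose, and slide 2, with 2 against 1, the Chrne difference was -0.61 and -0.55 (adjusted p = 0.851 and 0.158).

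Chrne was the 1 member whose group means spanned at least 1 log2 unit, and the genes most like it over the 9 arrays were Tspyl5, Sdc2 and Ppp1r3c. Likeness was the root mean square difference between profiles centred on their own means, over 20206 genes, and it was 0.118, 0.147 and 0.149. Sdc2, a cell-surface heparan sulfate proteoglycan, had a bright probe with group means of 4.46, 4.05 and 3.33. It fell at 1 nM by 0.42 (adjusted p = 0.0188) and at 10 nM by 1.13 (adjusted p = 8.75e-05). Ppp1r3c, a glycogen-targeting subunit of a phosphatase, had means of -3.43, -3.83 and -4.64, and Tspyl5 of -3.68, -4.06 and -4.72. These genes were picked for their likeness, so their levels are a description.

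**Figure D4:**
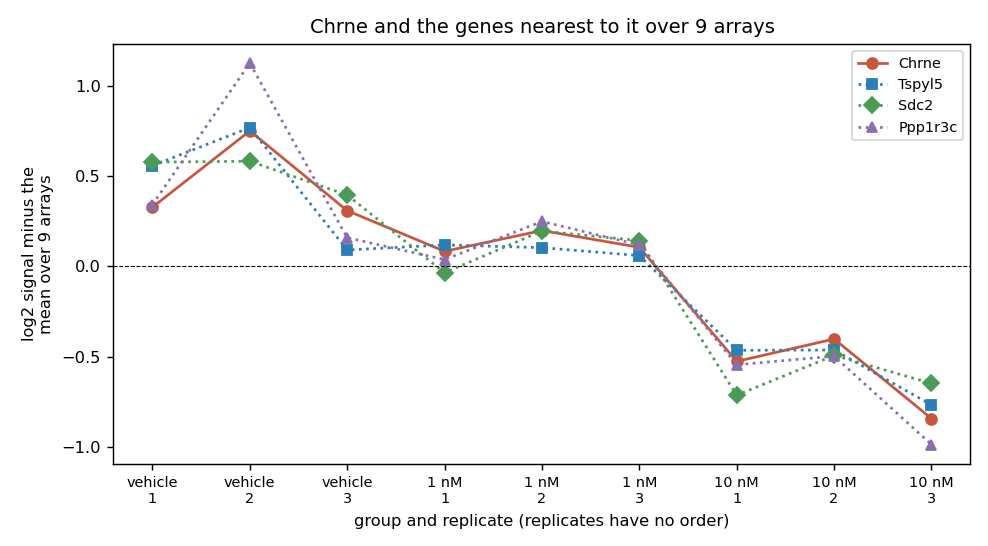
Level of Chrne, Tspyl5, Sdc2 and Ppp1r3c on each of 9 arrays, in log2 units from each gene's mean over the arrays. All 4 genes lie above 0 on the vehicle arrays and below -0.3 on the 10 nM arrays, and Ppp1r3c on vehicle replicate 2 is the highest point.

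Around these 10 genes, a list of 88 further genes of the synapse, its matrix, its signalling and its transcription was examined, of which 78 were tested. At 1 nM 11 rose and 13 fell, and at 10 nM 15 rose and 20 fell. The list holds Ephb1 and Sv2a, which were above background on 3 vehicle arrays and on 0 arrays of either dose. They passed the filter on dim probes through vehicle alone, so the filter favoured a fall for them. The list's medians were -0.11 and -0.14, against -0.09 and -0.11 over all genes. Over all genes 23.6% and 30.1% were called, against 24 and 35 of these 78. Without vehicle replicate 3 the counts were 14 and 12 at 1 nM and 16 and 17 at 10 nM, against 25.3% and 32.5% of all genes. Of the genes named here, Agrn, Colq, Utrn, Erbb2 and Myog were always given, and the others had the smallest p in their direction.

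Of signals from the nerve and matrix, Agrn, which encodes agrin, did not pass, with levels of 2.34, 2.29 and 2.27 in vehicle and differences of 0.18 (adjusted p = 0.086) and 0.09 (adjusted p = 0.345). Prss12, which encodes neurotrypsin, the protease that cleaves agrin, fell by 2.07 at 1 nM (SE 0.13, adjusted p = 2.07e-05) and fell by 3.07 at 10 nM (adjusted p = 1.65e-06). Its levels were -0.98, -1.07 and -0.99 in vehicle, -3.10, -3.04 and -3.11 at 1 nM, and -4.03, -3.86 and -4.38 at 10 nM. The 3 groups were far apart relative to their spread.

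Nrg1, the neuregulin ligand of ErbB receptors, fell by 1.21 and 1.86 (adjusted p = 0.000212 and 1.41e-05). Its levels were 1.75, 1.41 and 1.83 in vehicle, 0.38, 0.47 and 0.51 at 1 nM, and -0.28, -0.11 and -0.19 at 10 nM. Its 1 nM call was lost with array median scaling (-0.72, adjusted p = 0.191). Its co-receptor gene Erbb2 did not pass (0.12 and -0.06, adjusted p = 0.29 and 0.585). The laminin chain gene Lama4, a part of the synaptic basal lamina, fell 8.08-fold at 10 nM (log2 -3.01, SE 0.16, adjusted p = 1.98e-05), and vehicle replicate 3 had no value for it. Colq, the collagen tail of acetylcholinesterase, rose at 1 nM by 0.43 (adjusted p = 0.013), and at 10 nM its difference was 0.08 (adjusted p = 0.529). The Colq call was lost without 1 nM replicate 2 (0.40, adjusted p = 0.057) or 3 (0.38, adjusted p = 0.0573).

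Wnt4 and the receptor gene Fzd9, of a pathway that also acts on MuSK, rose at both doses. Wnt4 levels were -1.19, -1.65 and -0.91 in vehicle, 0.92, 1.06 and 1.08 at 1 nM, and 0.74, 0.99 and 0.85 at 10 nM, a rise of 2.27 and 2.11 (SE 0.18, adjusted p = 7.72e-05 and 7.9e-05). Its other probe gave 1.51 and 1.46. Fzd9 rose by 1.02 and 0.84 (adjusted p = 1.21e-05 and 2.07e-05).

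Epha4, an ephrin receptor of the junction, had the largest rise of the list. Its levels were -2.05, -2.03 and -1.96 in vehicle, 0.72, 0.78 and 0.54 at 1 nM, and 1.352, 1.4 and 1.375 at 10 nM. That is 6.44-fold and 10.4-fold higher (log2 2.69 and 3.39, SE 0.08, adjusted p = 4.58e-07 and 1.01e-07). The kinase gene Pak1 rose by 0.74 and 0.54, and the Ets factor gene Etv5 rose by 0.50 and 0.64 (adjusted p at most 0.00203 for each).

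Among genes of the membrane scaffold, Ank3, which encodes ankyrin-G, fell by 0.33 and 0.85 (adjusted p = 0.00709 and 3.74e-05). Utrn, the synaptic relative of dystrophin, differed by -0.21 at 1 nM (adjusted p = 0.102) and fell by 0.59 at 10 nM (SE 0.08, adjusted p = 0.00101), a call lost with array median scaling (-0.06, adjusted p = 0.906), which also gave 0.28 at 1 nM. It was also lost with the percentile taken without non-uniform spots (-0.44, adjusted p = 0.0541).

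Of enzymes that glycosylate the receptor on its way to the membrane, Alg14 fell by 0.76 and 0.80 and Gmppb by 0.67 and 0.77 (adjusted p at most 0.000413). Ly6e, a small membrane protein related to receptor modulators, fell by 0.76 and 0.70 (adjusted p at most 0.000439). With array median scaling the calls of Alg14, Ly6e and Gmppb at 1 nM and of Gmppb and Ank3 at 10 nM were lost, with the same directions.

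Myog, the myogenic factor that binds E-boxes such as those above, differed by -0.13 at 1 nM (adjusted p = 0.226) and fell by 0.43 at 10 nM (SE 0.07, adjusted p = 0.00287), but with array median scaling these values were 0.36 and 0.10. Its levels were 4.4, 4.496 and 4.368 in vehicle, 4.22, 4.33 and 4.30 at 1 nM, and 3.91, 4.03 and 4.04 at 10 nM. The 3 groups did not overlap in the main setting. Within slides 1 and 2 the 10 nM difference was -0.54 and -0.34, each with 1 array at 10 nM, and neither passed. Relative to the median of all genes Myog at 10 nM was -0.32 in the main setting and -0.29 under median scaling, a closeness fixed in advance. It was -0.58 with quantile normalization and -0.53 in the submitters' table.

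Between the doses 3 genes of the list rose and 7 fell, against 3.81% of all genes, and with the replicate number as a block 2 rose and 3 fell. Epha4 was higher at 10 nM than at 1 nM by 0.70 (adjusted p = 0.00365). Lama4 was lower by 1.64 (adjusted p = 0.00278), Prss12 by 1.00, Nrg1 by 0.65, Ank3 by 0.51, Lama2, a laminin chain of the muscle basal lamina, by 0.39 and Utrn by 0.37, with adjusted p of 0.00534 to 0.0483. The block ended the calls of Lama2 (adjusted p = 0.0508), Nrg1 (0.0768) and Utrn (0.113). Without any single array of either dose the count was 4 or 5, and without vehicle replicate 3 it was 12, against 5.76% of all genes.

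**Figure D5:**
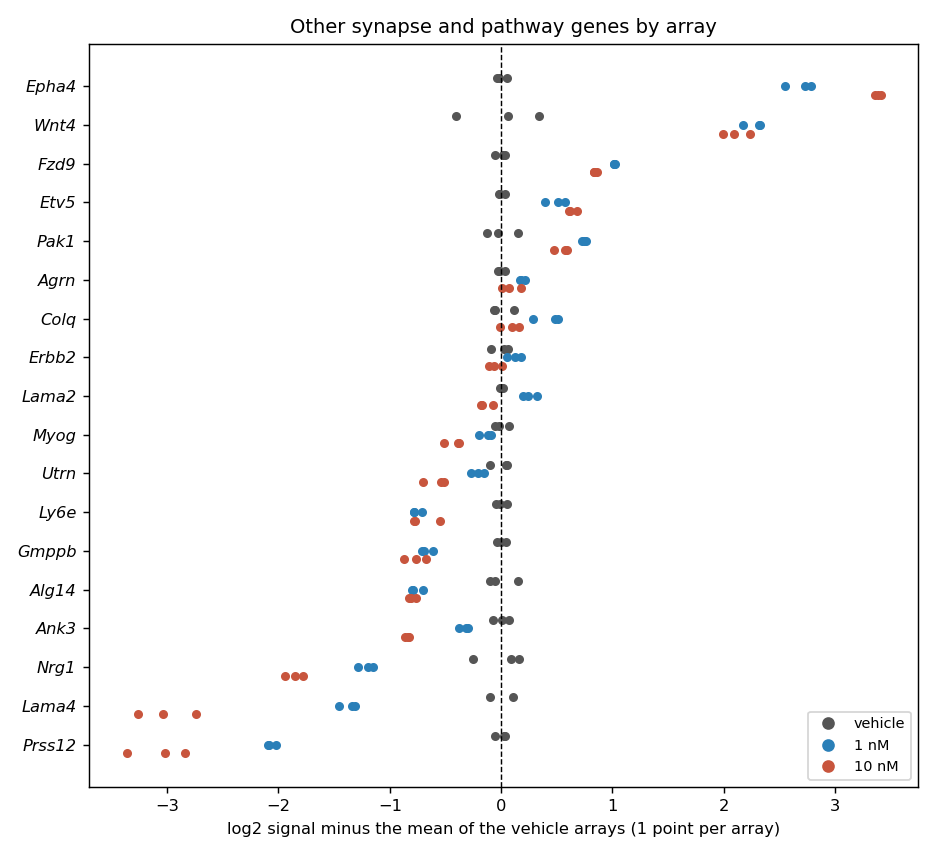
Level of the 18 further synapse and pathway genes named here on each array (points), in log2 units from the mean of the vehicle arrays, ordered by the difference at 10 nM. Epha4 and Wnt4 lie to the right of 1.9 at both doses, and Prss12, Lama4 and Nrg1 lie to the left of -1.

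Markers of the cells in culture also changed, in directions that differed between the lists. All 12 tested genes of the myotube list were well above background on every array. So were 6 of 7 fibroblast and 5 of 6 Schwann cell markers, so this mark does not tell cell types apart. The summed level of the myotube list was 9.11 to 9.29 in vehicle, 9.44 to 9.54 at 1 nM and 9.55 to 9.60 at 10 nM. Of its genes 6 rose and 0 fell at 1 nM, and 8 rose and 1, Myog, fell at 10 nM. Mb (myoglobin) rose by 0.73 and 0.79 and Actn2, a Z-disc actinin, by 0.85 and 0.59.

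Of the proliferating myoblast list all 8 tested genes fell at both doses, and Mki67, a marker of cycling cells, fell by 4.48 and 5.47. The summed level was 5.57 to 5.70 in vehicle, 3.64 to 3.70 at 1 nM and 3.63 to 3.66 at 10 nM. Of 7 fibroblast markers 3 rose and 4 fell at 1 nM, and 2 rose and 4 fell at 10 nM, with summed levels of 7.30 to 7.40, 6.86 to 6.98 and 6.74 to 6.92. Thy1, among the 4 that fell at each dose, passed the filter on dim probes through the vehicle group alone. It was above background on 3 vehicle arrays, 2 at 1 nM and 1 at 10 nM, so the filter favoured a fall. The part of these shifts in the values of the junction genes was not tested.

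Markers of cells outside the muscle lineage were tested too. Of 6 motor neuron markers tested, 3 were above background on all 9 arrays, 0 rose and 2 fell at each dose. The summed level of the list was 0.62 to 1.07 in vehicle, -0.60 to -0.42 at 1 nM and -0.97 to -0.72 at 10 nM. The genes that fell were Slc5a7, the choline transporter, and Tubb3, a neuronal tubulin also found outside neurons. Of 6 Schwann cell markers 0 were called by limma at 1 nM, where 1 had an unadjusted p under 0.05, and 1, Mbp, fell at 10 nM (adjusted p = 0.0426). The Mbp levels were -3.70, -3.57 and -2.22 in vehicle and -4.16, -4.59 and -4.64 at 10 nM. The highest is that of vehicle replicate 3, the array that stood apart. Of 3 endothelial markers Tek rose at both doses. It was above background on 1 vehicle array and on 3 arrays of each dose, and vehicle replicate 3 had no value. Tek passed the filter on dim probes through the dose groups alone, so the filter favoured a rise.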

How the data were processed

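Per the labels, total RNA of 9 samples was hybridised to 1-colour arrays. The submitters' processing notes name Agilent Feature Extraction 11.5.1.1, whose deposited scanner files hold intensity values, and columns of another kind hold 0 or 1 marks per spot, per the file headers. A deposited value table gives log2 signals for 30094 probes, with column medians of 9.651 to 9.725. They correlated at 0.9999 on each array with normexp and quantile values made here, so the scale is log2 and uncentred, and they served as an alternative.

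Log2 signals were set against each array's 75th percentile, taken over its non-control spots with those marked non-uniform included. Control and non-uniform spots were then left out and replicate spots averaged. Probes entered (28339) when some group had all 3 of its arrays well above background. Genes were named by accession (21033 kept probes) or symbol (2168) from a GRCm38.p6 table, or kept the file's name (5138), and the kept probe with the highest mean stood for a gene. Groups were compared in limma 3.58.1 (R 4.3.3) in a single unblocked fit of the 3 groups, and p-values were adjusted over 21992 genes by Benjamini-Hochberg, at a threshold of 0.05. Deviations of same-numbered 1 nM and 10 nM arrays correlated at 0.484, 0.329 and 0.144, so those numbers were taken as pairs. Vehicle numbers were not (-0.42 to 0.0527). However, 1 nM replicate 3 and 10 nM replicate 2, which share slide 2 but not a number, correlated at 0.306. Replicate number and slide cannot be told apart in these correlations. The fit was tested on simulated data. The members, the lists, the rule for named genes (per comparison the 5 called with the smallest p in each direction, and 5 fixed names) and the tests were chosen with earlier results of these data known. A total of 10 listed genes, without a kept probe, were not tested. The number of arrays limits the precision. Some items that this rule names are not reported here.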

Additional observations from a re-analysis of the deposited data

How the results depend on the processing

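Chrnd at both doses, Rapsn at 10 nM and Chrne at 10 nM kept their calls under 25, 26 and 23 of 27 alternatives. The sign was the same in all 27. Several alternatives, such as another filter on dim probes or a stricter threshold, left these differences unchanged, so their sign was fixed in advance. For Chrne, normexp with quantile normalization gave -0.07 and the submitters' table -0.05 (adjusted p = 0.906 and 0.944). Neither value gives a direction. The cause of a move was not tested unless given. The estimate of the array weights stopped short of its convergence tolerance. Normexp with quantile normalization and median scaling, both without vehicle replicate 3, the 75th percentile without non-uniform spots, and the test of Chrne against Chrng with the replicate number as pairs, were chosen after seeing the data. Signal near background limits Chrne and Ache.

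The share called among all genes stands in brackets after each count. Counts of the 10 genes called at 1 nM moved from 3 (23.6%) to 0 with array median scaling (6.88%). They were 1 with that scaling without vehicle replicate 3 (16.5%), 1 in the submitters' table (16.8%) and 1 at a threshold of 0.01 (14.1%). With array weights the count was 7 (52.4%). At 10 nM they moved from 3 to 1 with median scaling, 5 with array weights and 0 within slide 1. Between the doses they moved from 0 (3.81%) to 3 with array weights (8.58%) and 2 with quantile normalization without vehicle replicate 3 (5.24%). They were 1 each with the replicate block (2.09%), the 2 groups alone (6.14%), trend and robust (4.69%), and probes above background on all arrays (4.78%). With 1 array left out they were 1 to 3 (15.9% to 25.3%), 3 to 4 (23.2% to 32.5%) and 0 to 1 (1.66% to 5.76%).

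Counts of the wider list moved at 1 nM from 24 to 8 with median scaling, 45 with array weights, 6 and 42 within slides 1 and 2, and 15 at a threshold of 0.01. At 10 nM they moved from 35 to 15 with median scaling and 10 within slide 1. Between the doses it moved from 10 (3.81%) to 16 with array weights (8.58%). It was 6 with the mean of kept probes (3.26%) and with normexp at the 75th percentile (2.97%). It was 5 with the replicate block (2.09%), without the dim-probe filter (1.76%) and with median scaling without vehicle replicate 3 (2.61%). It was 4 with quantile normalization (2.36%), the slide as a block (1.61%) and a threshold of 0.01 (1.68%). It was 2 with the percentile without non-uniform spots (1.41%), and 1 with median scaling (0.264%) and in the submitters' table (1.57%). With 1 array left out the last count was 4 to 12 (1.66% to 5.76%).

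The share called among all genes moved too. It was 6.88% with median scaling, 52.4% with array weights, and 7.2% and 51.5% within slides 1 and 2 at 1 nM. At 10 nM it was 47.6% with array weights, and 11.7% and 49.4% within slides 1 and 2. Between the doses it was 0.264% with median scaling, 8.58% with array weights, 1.57% in the submitters' table and 1.41% with the percentile without non-uniform spots.

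Values changed sign, none of them called under the alternative, as follows. With median scaling, at 1 nM Chrne 0.16, Myog 0.36 and Utrn 0.28, at 10 nM Ache 0.041, Dok7 0.40, Erbb2 0.47 and Myog 0.10, and Chrnd 0.021 between doses. Without vehicle replicate 3 that scaling gave Ache 0.041, Erbb2 0.115 and Chrnd 0.021. With the percentile without non-uniform spots, Myog 0.012 at 1 nM, and at 10 nM Dok7 0.016 and Erbb2 0.092. With quantile normalization, Chrne 0.27 and the Chrne against Chrng change 0.029 at 1 nM, Ache 0.044 at 10 nM and Chrnb1 -0.053 between doses. Without vehicle replicate 3 it gave Ache 0.046, Agrn -0.012, Chrng -0.054 and Musk -0.077 at 10 nM and Chrnb1 -0.053 between doses. In the submitters' table, Ache -0.40, Chrne 0.28 and the Chrne against Chrng change 0.039 at 1 nM, Erbb2 0.002 at 10 nM and Chrnb1 -0.053 between doses. With array weights, Ache 0.015 and Erbb2 0.044 at 10 nM and Chrnb1 -0.032 between doses, with normexp at the 75th percentile Chrnb1 -0.031, and with the slide as a block Chrnb1 -0.096. With the mean of kept probes, Ache -0.078, Agrn -1.03 and Colq -0.42 at 1 nM, Agrn -1.004 and Colq -0.66 at 10 nM, and Agrn 0.026 between doses; vehicle replicate 3 had no value for the dim Agrn and Colq probes, so its mean there holds the bright probe alone. The other probe gave Ache -0.30 at 1 nM, also under the filter on all 9 arrays, and Chrna1 -0.033 at 10 nM. Within slide 1, Ache -0.0073 at 1 nM, Agrn -0.0060, Chrna1 -0.0068, Lrp4 -0.135 and Musk -0.031 at 10 nM, and Chrnd 0.090 between doses. Within slide 2, Chrng -0.0074 at 10 nM and Chrnb1 -0.21 between doses. With 1 array left out, Ache at 1 nM ranged from -0.0079 to 0.46, at 10 nM Chrng from -0.0047 to 0.20, Lrp4 from -0.0022 to 0.31 and Ache from -0.33 to 0.14, and between doses Chrnb1 from -0.082 to 0.12 and Chrnd from -0.074 to 0.021.

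The replicate block ended the call of Musk at 1 nM (adjusted p = 0.0776) and changed no other call of the 10 genes beyond that of Chrne between the doses. Median scaling put the median of all genes at 0.38 and 0.40 and called 1513, 2532 and 58 genes, of which 62.1%, 67.1% and 69% were higher, against 49.9%, 51.2% and 41.9%.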
